A study of Homo sapiens with 6 samples.

Results

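The cytosolic ribosomal protein genes were followed in H3K27ac ChIP-seq (chromatin immunoprecipitation and sequencing) of human multiple myeloma cells treated with the BET bromodomain inhibitor JQ1. Members were the RefSeq protein coding genes whose symbol is RPL or RPS followed by a number, without the RPS6K kinases and the binding protein genes. The 82 genes analysed, of 20055 annotated protein coding genes, were 49 for proteins of the large subunit (RPL) and 33 for proteins of the small subunit (RPS). A listed H3K27ac region was assigned to a member when it overlapped the gene or lay within 1 kb of either gene boundary. In all, 8 of the 838 listed regions were assigned, 1 to each of 8 members.

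The lines KMS-11, KMS-12 and RPMI8226 come from malignant plasma cells and are established cultures, labelled as wild type. Each line gave 1 library after DMSO, the solvent control, and 1 after 1 µM JQ1 for 72 h, so that DMSO and JQ1 had 3 samples each and no line had a replicate. The authors' deposited table holds 1 log fold change per region and line, read here as log2 of JQ1 over DMSO. The comparison of JQ1 with DMSO asks how BET inhibition changes active chromatin in myeloma cells. The table gives neither counts nor values of single samples, so depth is unknown, no error can be attached to a value, and no test over samples could be made. All 838 regions were below 0 in the 3 lines, and for each of them the deposited number of shared lines was that of values under -0.5. The table therefore holds regions lower than -0.5 in at least 2 lines, and this filter fixed the direction of at least 2 of the 3 values of each region. Since the remaining value was also below 0 in every listed region, no direction below is particular to the members. Of 10 plasma cell markers, 3 (IRF4, MZB1 and XBP1) had a listed region, against 4.37% of all annotated protein coding genes. Of 4 markers each for B cells, for T and NK cells and for myeloid cells none had one. At a share of 4.37%, lists of 4 genes are too short for an absence to be informative.

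Each cytosolic ribosome is built from ribosomal RNA and a single copy of most ribosomal proteins, so cells make these proteins in matched amounts and at a high rate. Human ribosomal protein genes are short, broadly active genes, whose transcripts begin with a C and a run of pyrimidines, the terminal oligopyrimidine (TOP) tract through which mTOR controls their translation. Many of them carry small nucleolar RNA (snoRNA) genes in their introns, and the snoRNAs guide the modification of ribosomal RNA. H3K27ac marks active promoters and enhancers. BET proteins bind acetylated histones there, and JQ1 displaces them. Plasma cells and myeloma cells secrete antibody chains and depend on a high rate of protein synthesis.

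The annotated starts of 4 members lay inside their listed regions, and their promoters are shown because the H3K27ac values below include these starts. The windows of RPL7A and RPL36AL lie wholly inside the measured regions, while the region of RPL36 begins at -15 and that of RPL13A at -99 bp of the start, so that most of these 2 windows is outside. Sequences are from RefSeq on GRCh38.p14, 250 bases before the start and 30 from it, in the direction of the gene. They lie at chr19:5690045-5690324 on the plus strand (RPL36), chr19:49487358-49487637 on the plus strand (RPL13A), chr9:133347968-133348247 on the plus strand (RPL7A) and chr14:49620597-49620876 on the minus strand (RPL36AL). Capitals mark the motifs searched, which are spelled out further on.
RPL36: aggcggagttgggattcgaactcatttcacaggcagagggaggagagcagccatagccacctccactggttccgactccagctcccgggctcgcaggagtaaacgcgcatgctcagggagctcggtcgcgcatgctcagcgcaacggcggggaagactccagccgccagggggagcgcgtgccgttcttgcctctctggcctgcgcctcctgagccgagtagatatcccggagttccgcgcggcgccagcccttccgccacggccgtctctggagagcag
RPL13A: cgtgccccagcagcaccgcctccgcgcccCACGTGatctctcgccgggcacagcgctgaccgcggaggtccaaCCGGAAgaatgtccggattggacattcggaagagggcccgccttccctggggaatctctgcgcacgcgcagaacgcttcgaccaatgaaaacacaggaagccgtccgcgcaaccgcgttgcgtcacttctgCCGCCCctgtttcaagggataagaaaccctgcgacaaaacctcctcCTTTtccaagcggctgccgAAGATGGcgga
RPL7A: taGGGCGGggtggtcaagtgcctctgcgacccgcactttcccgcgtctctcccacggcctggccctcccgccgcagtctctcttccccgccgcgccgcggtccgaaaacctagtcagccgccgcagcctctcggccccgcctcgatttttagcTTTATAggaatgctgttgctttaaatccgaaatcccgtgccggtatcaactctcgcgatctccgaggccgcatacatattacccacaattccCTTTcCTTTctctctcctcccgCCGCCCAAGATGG
RPL36AL: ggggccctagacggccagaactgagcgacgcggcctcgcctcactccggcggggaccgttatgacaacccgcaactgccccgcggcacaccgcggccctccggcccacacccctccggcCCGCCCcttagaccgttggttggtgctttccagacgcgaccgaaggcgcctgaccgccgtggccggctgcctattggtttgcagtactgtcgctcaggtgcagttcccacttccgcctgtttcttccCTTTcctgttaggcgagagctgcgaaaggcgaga

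Among the 82 ribosomal protein genes, 8 (9.76%) had a listed region, against 4.37% of all annotated protein coding genes. They were RPL7A, RPL8, RPL13A, RPL23A, RPL28, RPL36, RPL36AL and RPS29. The large subunit gave 7 of 49 members (14.3%) and the small subunit 1 of 33 (3.03%). Of the 8 genes, 3 (RPL13A, RPL28 and RPL36) lie on chromosome 19, which carries 11 of the 82 members and where 4.34% of protein coding genes had a region. The 74 other members had no region within 1 kb, among them RPS6, whose product is the substrate of the S6 kinases, and RPL5 and RPL11, whose products bind MDM2 when ribosome assembly fails. For them the table does not separate H3K27ac that did not change enough from H3K27ac that rose or was not called as a peak. Just inside the distance limit was RPL28, 558 bp from its region. Just outside it, a further region 3080 bp from RPL23A was listed at -0.78 for KMS-11, -0.84 for KMS-12 and -0.52 for RPMI8226 in the authors' deposited table, and the next was 6535 bp from RPL35. When 1 line was left out, both others had to be past -0.5. Then 3 genes stayed if KMS-11 was dropped, 3 if KMS-12 was and 4 if RPMI8226 was. The filter fixes such a fall, since any region shared by only 2 lines is lost when either is dropped. Of all listed regions, 35.7% were shared by KMS-11 and KMS-12 only. A further 22.3% were shared by KMS-11 and RPMI8226 only, and 16.6% by KMS-12 and RPMI8226 only. Among the 8 regions these shares were 37.5%, 25% and 25%.

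Only RPL36 of the 8 was past -0.5 in all 3 lines, while 25.4% of all listed regions were. Of the other 7 regions, 3 were past it in KMS-11 and KMS-12 (RPL13A, RPL23A, RPL28), 2 in KMS-11 and RPMI8226 (RPL8, RPS29) and 2 in KMS-12 and RPMI8226 (RPL7A, RPL36AL). Taken by line, 6 of 8 regions were past -0.5 in KMS-11 (83.4% of all listed regions), 6 in KMS-12 (77.7%) and 5 in RPMI8226 (64.3%). The losses were moderate. None of the 8 regions was below -1 in any line, where 31.1% of all listed regions were, and the lowest single value was -0.95.

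**Figure D1:**
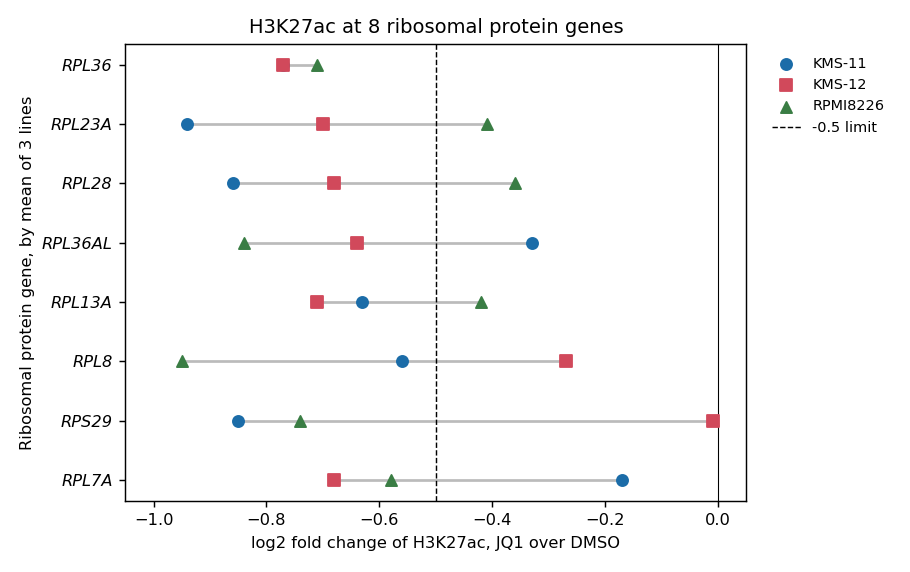
Log2 fold change of H3K27ac (x axis, JQ1 over DMSO) at each ribosomal protein gene with a listed region (y axis, ordered by the mean of 3 lines), from the authors' deposited table, with 1 point per cell line, a grey bar from the lowest to the highest line and a dashed line at -0.5. The KMS-11 and KMS-12 points of RPL36 coincide at -0.77, and RPL36 is the only gene with all 3 points left of the dashed line.

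RPL36 encodes a protein of the large subunit and had the lowest mean of the 8. Its region (chromosome 19, 5690280 to 5691524) ran from -15 to 1229 bp of the annotated start (negative positions are before it) and so covered most of this 1581 bp gene. The authors' deposited table gave -0.77 for KMS-11, -0.77 for KMS-12 and -0.71 for RPMI8226, equal, as log2 values, to 41.4%, 41.2% and 38.9% less signal. The 3 lines were within 0.06 of each other, the narrowest range of the 8 genes, while the other 7 ranged over 0.29 to 0.84. By its mean of -0.75, 25.8% of all listed regions were lower. LONP1, the gene of a mitochondrial protease, lies on the minus strand with its end 310 bp from the region, and its annotated starts were outside it.

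RPL23A, RPL28 and RPL13A were the members past -0.5 in KMS-11 and KMS-12 but not in RPMI8226. RPL23A, whose product sits at the mouth of the exit tunnel where the signal recognition particle docks, had a region across its lower boundary, the gene end with the smaller coordinate (chromosome 17, 28719844 to 28720740). The authors' deposited table listed it at -0.94 for KMS-11, -0.70 for KMS-12 and -0.41 for RPMI8226. The -0.94 was the lowest KMS-11 value of the 8 genes. This was also the 1 region of the 8 with a snoRNA gene inside, SNORD42B, a guide of ribosomal RNA methylation (28720550 to 28720616).

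RPL28 was assigned by distance only. Its region (chromosome 19, 55384017 to 55385374) ended 558 bp before its start and held the annotated start of TMEM238, a transmembrane protein gene on the opposite strand, 1640 bp from RPL28. In the authors' deposited table the values were -0.86 for KMS-11, -0.68 for KMS-12 and -0.36 for RPMI8226. No base of RPL28 itself was inside, and the signal cannot be assigned to RPL28 rather than to TMEM238.

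RPL13A encodes a large subunit protein that also acts outside the ribosome, in a complex that silences inflammatory mRNAs. Its region (chromosome 19, 49487509 to 49488969) ran from -99 to 1361 bp of its start. The authors' deposited table gave -0.63, -0.71 and -0.42 in KMS-11, KMS-12 and RPMI8226. No other protein coding gene lay within 1 kb. RPL13A holds 4 snoRNA genes, SNORD32A, SNORD33, SNORD34 and SNORD35A, and the nearest of them, SNORD32A, began 997 bp beyond the region.

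RPL8 and RPS29 were past -0.5 in KMS-11 and RPMI8226, and were the 2 members with the weakest KMS-12 values. RPL8, a core protein beside the peptidyl transferase centre, had a region across its higher boundary (chromosome 8, 144791406 to 144792903) that held the microRNA gene MIR6850. The authors' deposited table gave -0.56 for KMS-11, -0.27 for KMS-12 and -0.95 for RPMI8226. The last of these, 48.3% less signal, was the lowest of all 24 values of the 8 regions.

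RPS29 was the only small subunit member. It encodes a zinc-binding protein that is among the genes mutated in Diamond-Blackfan anaemia. Its region (chromosome 14, 49585694 to 49586981) lay wholly inside the gene, 11729 to 13016 bp after the 1 start in the RefSeq promoter table. That start has a T and a pyrimidine run of 1 base. Starts of its other transcripts were not used here and may lie in the region, so it cannot be placed as promoter or as intragenic. It held RN7SL1, a gene for the RNA of the signal recognition particle (49586580 to 49586878). The authors' deposited table listed -0.85 for KMS-11, -0.01 for KMS-12 and -0.74 for RPMI8226. KMS-12 thus had 1.01% less signal where the other lines had 44.6% and 40.1% less, the widest range of the 8 genes (0.84). Signal of this region cannot be divided between RPS29 and RN7SL1.

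RPL36AL and RPL7A were past -0.5 in KMS-12 and RPMI8226 and weakest in KMS-11. Both regions also lay over a neighbouring protein coding gene. RPL36AL, a retrocopy of RPL36A that encodes a nearly identical protein, starts 173 bp from MGAT2, a Golgi enzyme gene of N-glycan assembly, on the opposite strand. The region (chromosome 14, 49620008 to 49622347) was the widest of the 8 at 2340 bp and held both starts, and 26.5% of it was RPL36AL. The authors' deposited table gave -0.33 for KMS-11, -0.64 for KMS-12 and -0.84 for RPMI8226.

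RPL7A encodes a large subunit protein. Its region (chromosome 9, 133347573 to 133349144) ran from -645 to 926 bp of its start and also over the boundary of MED22, a Mediator subunit gene 87 bp away. The authors' deposited table listed -0.17 for KMS-11, -0.68 for KMS-12 and -0.58 for RPMI8226. Its mean of -0.47 was the highest of the 8 genes, and 89.7% of all listed regions were lower. Of its 4 snoRNA genes, SNORD24 was nearest, 252 bp beyond the region.

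**Figure D2:**
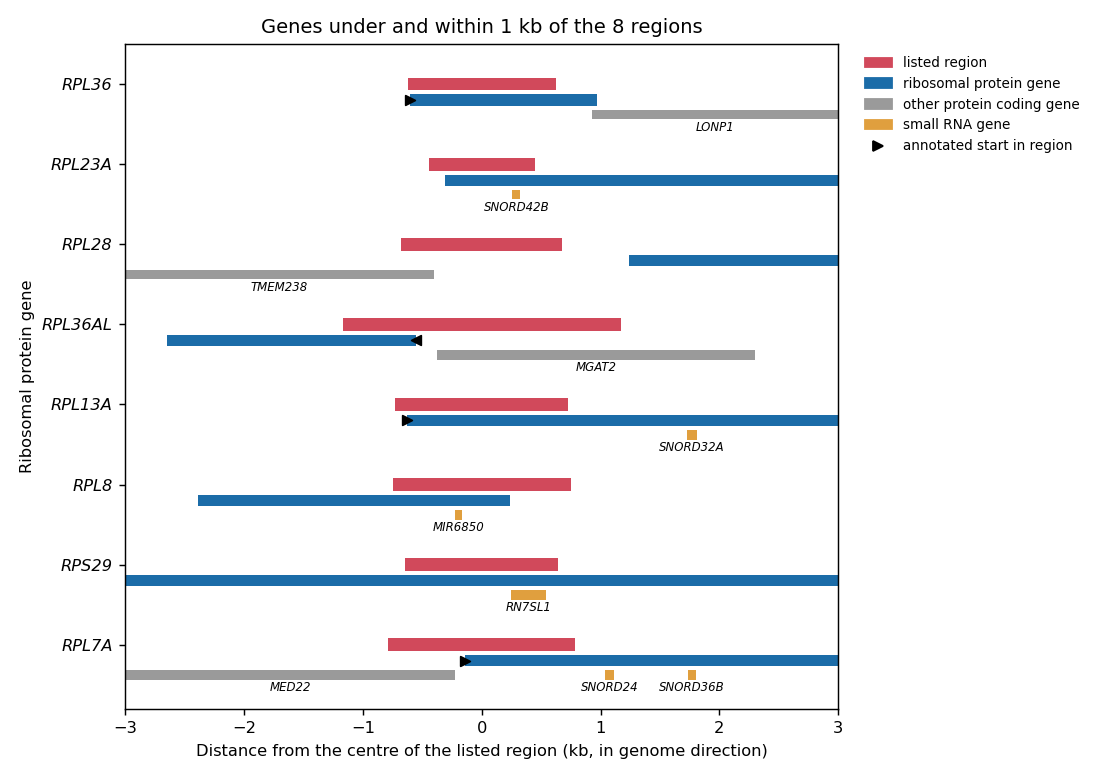
Position of each listed region (red) relative to its ribosomal protein gene (blue), other protein coding genes (grey) and small RNA genes (orange) within 1 kb, as distance from the region's centre in kb (x axis, in genome direction), 1 row per gene (y axis). Black arrowheads mark the 4 starts of the RefSeq promoter table that lie inside a region. RPS29 has its region inside the gene over RN7SL1, with starts of its other transcripts not shown. RPL28 has it outside the gene over the start of TMEM238.

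Set against the whole list, the medians of the 8 regions differed little from those of all regions. Their median log2 fold change was -0.70 for KMS-11, -0.68 for KMS-12 and -0.64 for RPMI8226, beside -0.66, -0.69 and -0.56 for the 838 regions together in the authors' deposited table. Values of the 8 ran from -0.94 to -0.17 in KMS-11, from -0.77 to -0.01 in KMS-12 and from -0.95 to -0.36 in RPMI8226. By the mean of the 3 lines, 3 of the 8 (RPL36, RPL23A and RPL28) were lower than the median region. Among the 7 regions shared by 2 lines the line not past -0.5 had a median of -0.33, beside -0.29 in all 625 such regions of the authors' deposited table. KMS-11 was the lowest line in 4 of the 8 (33.8% of all listed regions), KMS-12 in 2 (44.6%) and RPMI8226 in 2 (21.6%). The count for KMS-11 includes RPL36, close to a tie at -0.771 in KMS-11 and -0.766 in KMS-12.

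**Figure D3:**
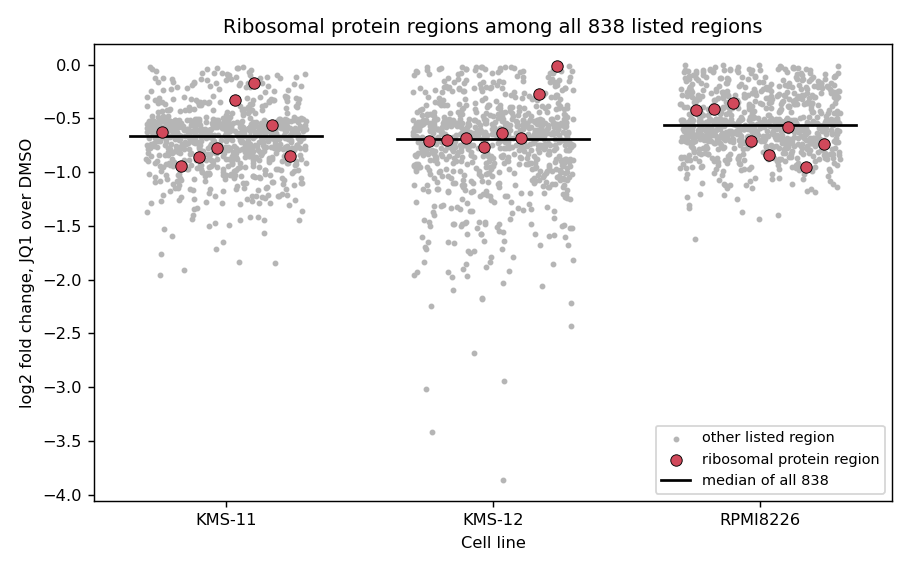
Log2 fold change (y axis, JQ1 over DMSO) of all 838 regions of the authors' deposited table by cell line (x axis), with the 8 ribosomal protein regions as red points and the median of all regions as a black bar. The red points stay above -1 in every line, while the grey points reach -3.86 in KMS-12; sideways scatter has no meaning.

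Regions near another protein coding gene and regions near none had different medians in KMS-11 and KMS-12. The 4 regions of RPL8, RPL13A, RPL23A and RPS29 were within 1 kb of no other protein coding gene, and their median was -0.74 for KMS-11, -0.49 for KMS-12 and -0.58 for RPMI8226 in the authors' deposited table. The 4 regions of RPL7A, RPL28, RPL36 and RPL36AL were near 1, with -0.55, -0.68 and -0.64 in the same order of the authors' deposited table. In KMS-12 the regions near another gene were between -0.77 and -0.64. Those near none ran from -0.71 to -0.01 there, so that the groups overlapped. Groups this small carry no test.

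SnoRNA genes lie in the bodies of many ribosomal protein genes, 26 of the 82 (31.7%). Of the 8 genes with a region, 4 (RPL7A, RPL13A, RPL23A and RPL28; 50%) host at least 1 snoRNA gene, as do 22 of the 74 members without a region (29.7%). Together the 4 hold 13 snoRNA genes, of which 1, SNORD42B in RPL23A, was inside a region. Over all 838 regions, 5 (0.597%) overlapped a snoRNA gene. The 4 regions of host genes had a median of -0.42 in RPMI8226 (range -0.58 to -0.36) and the 4 regions of the other genes, RPL8, RPL36, RPL36AL and RPS29, one of -0.79 (range -0.95 to -0.71), both from the authors' deposited table. These RPMI8226 ranges did not overlap, with 64.3% of all listed regions past -0.5 in RPMI8226, and the 3 members not past it there, RPL13A, RPL23A and RPL28, were all host genes. The -0.36 end of the host range came from RPL28, whose region holds no base of that gene. Over the 6 regions of noncoding snoRNA host genes the RPMI8226 median was -0.55. It was -0.55 over the 13 regions within 1 kb of a snoRNA gene and -0.56 over all 838. These sets do not contrast host genes with others, and the 13 include the regions of RPL7A, RPL13A and RPL23A. They therefore cannot decide whether the split holds elsewhere. The order of the medians was the opposite in KMS-12, at -0.69 for host genes and -0.45 for the others, and in KMS-11, at -0.75 and -0.66, in the authors' deposited table. In both of these lines the ranges overlapped, from -0.71 to -0.68 for host genes and from -0.77 to -0.01 for the others in KMS-12, and from -0.94 to -0.17 and from -0.85 to -0.33 in KMS-11, in the authors' deposited table. The filter ties the lines to each other, since a region weak in 1 line had to be past -0.5 in both others.

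The shown promoters were searched on both strands for CACGTG, the E-box of MYC and related factors, for CCGGAA, the core of the ETS family to which FLI1 of the study's title belongs, for AAGATGG of YY1, for GGGCGG, the GC box of SP1, and for TATAAA, the TATA box. On the sense strand alone, CTTT was searched within 10 bases of the start, as letters of the TCT initiator typical of ribosomal protein genes. Whole windows of 250 bases before and 50 after each start were used for the counts, and 66 of the 82 members had at least 1 window, with 82 windows in all. A match is a description of the letters and not of binding.

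In all 4 shown promoters the base at the annotated start was C. The run of pyrimidines from the start was 16 bases in RPL7A, 7 in RPL13A, 6 in RPL36 and 3 in RPL36AL. RPL13A held the most motifs. It had CACGTG from -221 to -216, CCGGAA from -177 to -172, the GC box on the minus strand from -46 to -41, CTTT from 1 to 4 and AAGATGG from 20 to 26, counted from 1 at the start. Its CACGTG and CCGGAA were outside the listed region, and its other matches inside. RPL7A held AAGATGG from 24 to 30, a pair of GC boxes, TATAAA on the minus strand from -97 to -92 and CTTT from 1 to 4 and from -5 to -2. In RPL36AL there was a GC box on the minus strand from -131 to -126 and CTTT from -4 to -1. RPL36, the gene past -0.5 in all 3 lines, had none of these motifs in its window. No motif was thus shared by all 4 promoters, and none of the matches overlapped another.

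Over all members the start features were more frequent than in other promoters. C stood at the start of 61% of the 82 ribosomal protein windows, against 11.4% of 22183 windows of protein coding genes. A C followed into a run of at least 5 pyrimidines was found in 53.7% against 4.54%, and CTTT near the start in 50% against 9.03%. CCGGAA was in 53.7% of ribosomal protein windows and in 21.2% of those of all protein coding genes. It was in 2 of 6 windows of listed members (RPL13A and RPL28) and in 42 of 76 windows of members without a region (55.3%). Every other feature had the higher share in listed members, such as AAGATGG at 33.3% against 9.21% and CACGTG at 16.7% against 5.26%. The 16.7% is 1 of 6 windows, so these shares are too coarse to compare. In ribosomal protein windows against those of all protein coding genes, CACGTG was in 6.10% against 8.34% and AAGATGG in 11% against 6.04%. In the same order, the GC box was in 53.7% against 56.3% and the TATA box in 7.32% against 9.47%. Windows of 1 gene can overlap, so they are not independent.

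**Figure D4:**
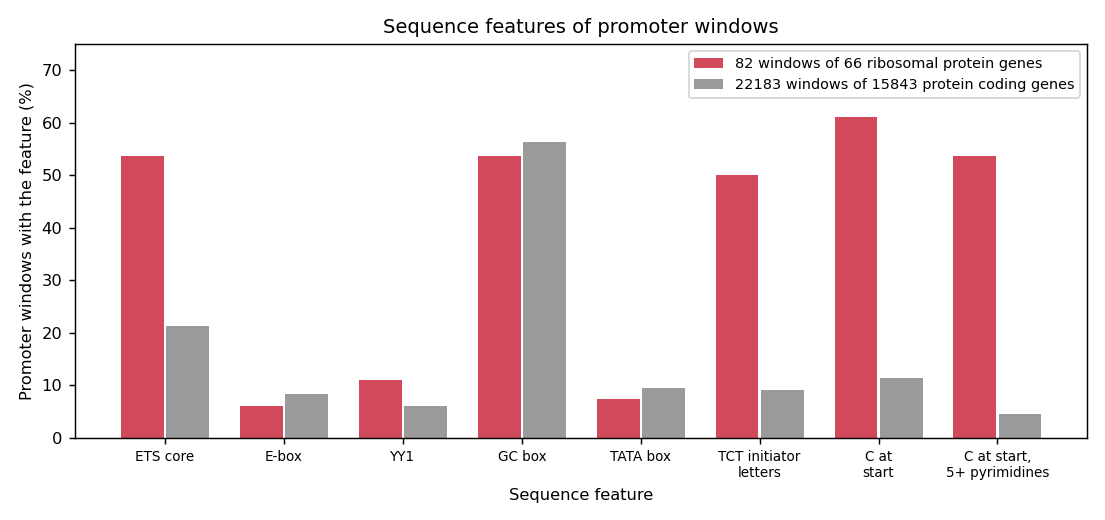
Share of promoter windows (y axis, %) that hold each sequence feature (x axis), for 82 windows of 66 ribosomal protein genes (red) and 22183 windows of 15843 protein coding genes (grey), RefSeq on GRCh38.p14. The start features and the ETS core stand higher in the ribosomal protein windows, for example 61% against 11.4% for C at the start.

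Other genes of the translation apparatus were read from fixed lists in the same way. Of 7 ribosomal protein genes that the symbol rule leaves out, 1 had a region. This was RACK1, a small subunit scaffold protein, at -0.76 for KMS-11, -0.75 for KMS-12 and -0.56 for RPMI8226 in the authors' deposited table, past -0.5 in all 3 lines and over the snoRNA gene SNORD95. Of 53 translation factor genes, 9 (17.0%) had a region, 2 of them in 3 lines. The lowest by mean were PABPC1, EIF4EBP1, EIF2A and PABPC4, and the authors' deposited table gave PABPC1, the main poly(A) binding protein gene, -1.02, -0.78 and -1.11. The EIF2A region also overlapped the gene SERP1. EIF4EBP1, whose product blocks cap-dependent translation until mTOR releases it, had -0.52, -1.73 and -0.21 in the authors' deposited table.

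Ribosome biogenesis factors had regions at 9 of 91 genes (9.89%), 4 in 3 lines, namely NOP56, MPHOSPH10, NCL and NOP53, which were also the lowest by mean. The MPHOSPH10 region also overlapped the gene MCEE. NOP56, a core protein of the snoRNA particles, had -0.84, -1.03 and -0.55 in the authors' deposited table, and nucleolin (NCL) had -1.04, -0.51 and -0.77. Mitochondrial ribosomal proteins had 2 of 77 (2.60%), MRPS34 and MRPL36, below the 4.37% of all protein coding genes. The MRPS34 region also overlapped the genes EME2 and NME3. Of 32 noncoding snoRNA host genes, 6 had a region (18.8%), 3 in 3 lines, and the lowest by mean were SNHG26, SNHG7, SNHG1 and SNHG29. Of 539 snoRNA genes, 18 lay within 1 kb of a region (3.34%), from 13 regions, the lowest being SNORA84, SNORD110, SNORA17A and SNORD25. The region near SNORA84 lay over IARS1, 152 bp from SNORA84. SNORD110, SNORA17A and SNORD25 were near the regions of NOP56, SNHG7 and SNHG1 already named, so they are not separate losses. The SNHG1 region itself lay over SLC3A2, 244 bp from SNHG1. The medians of the translation factor regions were -0.62, -0.53 and -0.72 in KMS-11, KMS-12 and RPMI8226, and those of the biogenesis regions -0.66, -0.56 and -0.60, in the authors' deposited table. None of these lists was tested against another, and which of the annotated genes carried H3K27ac and could have entered the table is unknown. No share over all noncoding genes was computed, so the noncoding snoRNA host genes and the snoRNA genes have no reference share here.

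**Figure D5:**
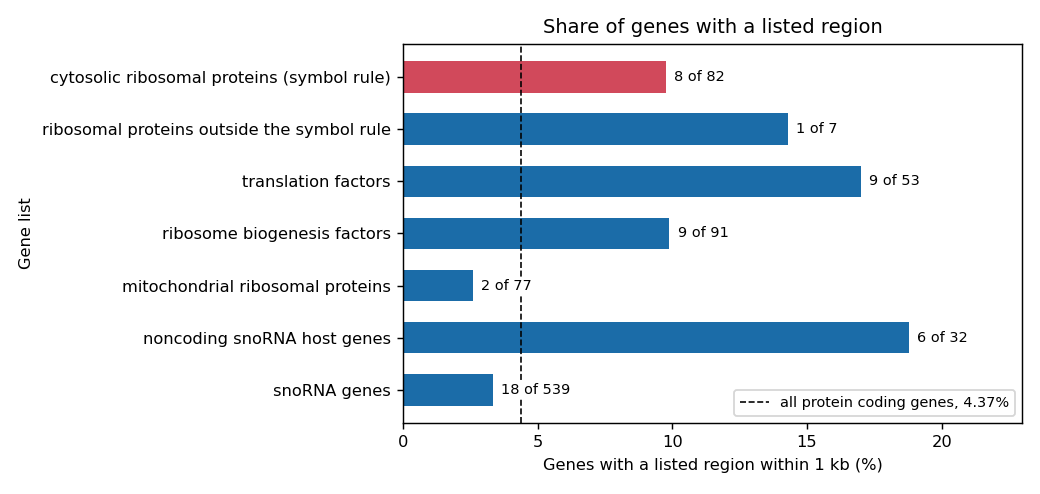
Share of the genes of each list (y axis) with a listed region within 1 kb (x axis, %), with the number of genes beside each bar and the share of all protein coding genes (4.37%) as a dashed line. The dashed line is no reference for the noncoding snoRNA host genes and the snoRNA genes. The cytosolic ribosomal protein genes (red, 8 of 82) stand at 9.76%, and their mitochondrial counterparts (2 of 77) at 2.60%.

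Ribosomal protein genes have many processed pseudogenes, which can share reads with their parents. None of the 838 listed regions overlapped any of 1915 annotated ribosomal protein pseudogenes. This describes where the regions lie and does not test whether reads were shared at the parent genes. The sources used here do not say how reads that match several copies were counted, and RPL36AL has the near-identical relative RPL36A.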

How the data were processed

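H3K27ac ChIP-seq was done on 6 samples, 1 DMSO and 1 JQ1 library in each of 3 lines. The authors' deposited table gives 838 regions with a log2 fold change per line and the number of lines in common as another column. The log base and numerator are not written there, per the file headers. DESeq2, MACS2, hg38 and GRCh38.p13 are named, without a role, in the submitters' processing notes. The aligner, peak settings and library normalization are not stated (not given in the sources used here). Depth is unknown.

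Regions were matched to RefSeq genes of GRCh38.p14, which has the chromosome coordinates of hg38, with pandas 2.3.3 in Python 3.11.15. Positions are as deposited, and widths count both ends. RefSeq promoter windows gave strand and starts, and RPL8 and RPL23A had none. Counts and medians are set beside those of all regions or genes, with no test, since the deposited values hold no replicate and regions are not replicates. Assignment and motif search were tested on simulated data. Every analysed member with a region was named. Of the genes that fit the symbol rule, 1 is not reported here and was left out of all gene counts. Of the other lists up to 4 genes with the lowest mean were named. Members and lists were chosen with earlier results of these data known. Alternatives were the distance, the symbol rule, shared regions, stricter limits and leaving out a line.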

Additional observations from a re-analysis of the deposited data

How the results depend on the processing

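No paired analysis was possible because the deposited fold changes already join the JQ1 and DMSO library of each line and no values of single samples were at hand. Of 48 alternative values, 22 stayed within 1.5 times the count or within the spread of the 3 line medians (SD 0.029). That SD is a spread between lines and not the error of a median over 8 regions. Within 2.5 kb and with 1 region per gene the same 8 regions were used, so those values could not move. Leaving out a line gave 3 to 4 genes in place of 8, a fall fixed by the rule that both other lines be past the limit. A limit of -0.75 left 1 gene, RPL36, in 2 lines and 0 in 3 lines, and a limit of -1 left 0 and 0. The share of all listed regions that meets these stricter limits under the same rule was not computed. These counts therefore do not show whether the members differ from the whole list. For single lines, 113 (KMS-11), 178 (KMS-12) and 37 (RPMI8226) of the 838 listed regions were below -1, and 0 member regions were. Without regions near another protein coding gene 4 genes stayed, 0 in 3 lines, and the median was -0.74 for KMS-11 (in place of -0.70), -0.49 for KMS-12 (-0.68) and -0.58 for RPMI8226 (-0.64). The count in 3 lines was 2 within 5 kb and 2 with the genes outside the symbol rule. The KMS-11 median was -0.77 within 5 kb and without paralog symbols and -0.76 with the genes outside the rule, and the RPMI8226 median was -0.58 in these 3 settings. With overlap alone, and without the region over a snoRNA gene, the medians were -0.63 in KMS-11 and -0.71 in RPMI8226. The means were -0.64 in KMS-11 and -0.56 in KMS-12. By construction, more regions entered within 5 kb and with the genes outside the rule, and fewer entered in the other counts given. For the medians the cause was not tested. Depth is unknown, so no limit of detection can be given.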
